A study of Mus musculus with 6 samples.

Results

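The mesenchymal transcription factors described here are 10 genes of 6 families: the paired-related homeobox genes Prrx1 and Prrx2, the basic helix-loop-helix (bHLH) genes Twist1 and Twist2, the Snail zinc-finger genes Snai1 and Snai2, the zinc-finger and homeobox genes Zeb1 and Zeb2, the T-box gene Tbx18, and the bHLH gene Tcf21. They were taken as the probe sets whose platform annotation names a single gene, that gene being a member. This gave 25 probe sets of 45037 and all 10 genes of 18193. Signal came from 6 arrays of the Affymetrix MOE430_2 type: 3 held RNA of Ebf2-positive (CD45-TER119-CD31-EBF2+) and 3 of Ebf2-negative (CD45-TER119-CD31-EBF2-) bone marrow cells. All cells came fresh and untreated from adult wild-type C57BL/6 mice, 1000 or 2000 cells per RNA sample. CD45 marks leukocytes, TER119 erythroid cells and CD31 endothelial cells, so the shared gate aims at stroma, and Ebf2, an early B-cell factor family gene of immature mesenchyme, divides it. The labels used here do not say how many mice made up a sample, their exact age or how Ebf2 was detected. Nothing says that replicates came from separate animals, so p-values set a difference only against the spread among these samples. That spread may be technical.

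These factors set and keep mesenchymal identity. Snail and Zeb proteins are repressors that bind E-boxes with a CACCTG core and silence epithelial genes such as Cdh1 (E-cadherin), the hallmark of epithelial-mesenchymal transition. Twist1, Twist2 and Tcf21 bind E-boxes as dimers with ubiquitous E proteins, while the ID proteins titrate those partners away. Prrx1 and Prrx2 act in limb and craniofacial mesenchyme, Tbx18 marks epicardial and mural-cell lineages, and Tcf21 marks fibroblast progenitors of the heart, lung and kidney. Several are also used in blood: Zeb2 and Snai2 both act in haematopoietic cells.

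The marker lists set the samples apart, and the Ebf2-negative samples held more signal of erythroid, basophil and leukocyte genes. Leukocyte genes also had signal on Ebf2-positive arrays, with a marker mean of 5.87, against 8.05 on Ebf2-negative arrays. All 6 mesenchymal stroma and all 6 mural-cell markers were called higher in Ebf2-positive cells when read by the brightest probe set of each gene, with mean log2 signals of 12.44 and 10.95 in Ebf2-positive cells and 8.22 and 5.59 in Ebf2-negative cells. Acta2, smooth muscle actin and a mural marker, was not called on its brightest probe set without an _x_, _s_ or _a_ suffix (0.34, limma adjusted p = 0.466), the suffixes that mark probes able to match more than 1 transcript. All 6 erythroid and all 5 measured basophil and mast cell markers were called lower, with means of 5.45 and 4.08 in Ebf2-positive cells and 9.94 and 8.27 in Ebf2-negative cells. Without Ebf2-negative replicate 3, 3 of the 5 basophil and mast cell markers were called lower, and 2 of the 6 leukocyte markers in place of 4. The log2 of the summed erythroid signal ran from 8.0 to 9.54 on the Ebf2-positive arrays and from 13.23 to 13.33 on the Ebf2-negative arrays. RMA gives no value of 0, so none of these markers was at 0. The part of this mix of cells in the differences below was not tested. In such bulk samples, fewer cells of a type and less RNA per cell cannot be told apart. Ebf2 itself averaged 8.33 ± 0.41 on the Ebf2-positive arrays and 3.66 ± 0.49 on the Ebf2-negative arrays (SD, n = 3 each). Ptprc, which encodes CD45, read 6.68, 6.76 and 3.59 on Ebf2-positive arrays, against 8.78, 7.98 and 8.23 on Ebf2-negative arrays. Ebf2-positive replicates 1 and 2 were thus above 5.97, the value that 75% of all signals fall under. Ptprc differed by -2.65 and was not called (limma adjusted p = 0.0698), but was called lower without Ebf2-positive replicate 3 (-1.61, limma adjusted p = 0.0162). Pecam1, which encodes CD31, differed by 0.56 (limma adjusted p = 0.403). Arrays correlated at 0.919 to 0.924 within the Ebf2-positive group and at 0.968 to 0.977 within the Ebf2-negative group, over 45037 probe sets that are not independent. Ebf2-positive replicate 2 stood apart on the second principal component, and none of the 7 calls among the 10 factors was lost without it.

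Of the 10 factors, 7 were called higher in Ebf2-positive cells, and 0 were called lower. Those called were Prrx1, Prrx2, Twist1, Twist2, Snai1, Zeb1 and Tbx18, while Snai2, Zeb2 and Tcf21 were not. The background is high: 24.4% of all 18193 genes were called, 10.8% of all genes higher and 13.6% lower (limma with Benjamini-Hochberg adjustment over all genes, threshold 0.05). The median log2 difference, Ebf2-positive minus Ebf2-negative, was 1.87 over the factors and 0.07 over all genes. The same 7 factors had groups that did not overlap, where 43.0% of all genes had this property, 21.8% of genes with Ebf2-positive cells higher and 21.2% with them lower. Centring each array on its poly-A spike-in controls lowers every difference by 2.48, and with it 1 factor (Prrx2) was called higher and 3 (Snai2, Zeb2 and Tcf21) lower. With this scaling 15823 of all 18193 genes were called, and the median difference over all genes was -2.41. Genes called lower with it are therefore to be read beside that general shift. Twist2, Snai1 and Zeb1 then had negative differences. "Higher" below therefore means higher than the bulk of genes on the same array, not more transcript per spike-in.

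**Figure D1:**
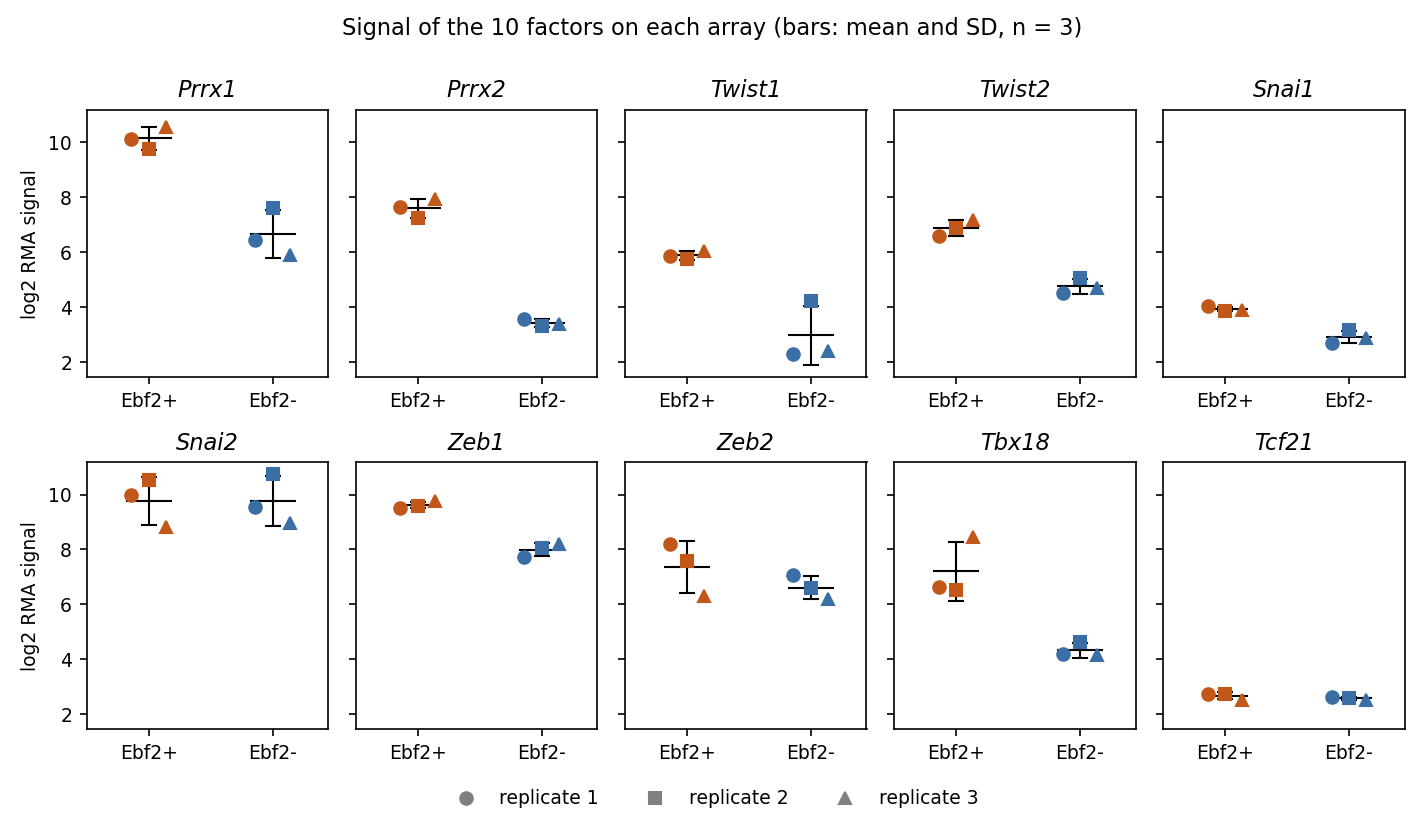
Log2 RMA signal (vertical axis) of each of the 10 factors on the 3 Ebf2-positive arrays (orange, left) and the 3 Ebf2-negative arrays (blue, right), with the mean and SD as bars. The groups do not overlap for 7 factors and overlap for Snai2, Zeb2 and Tcf21; levels of different factors come from different probes and cannot be set against each other, and with poly-A centring the differences of Twist2, Snai1 and Zeb1 turn negative.

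Both paired-related homeobox genes were higher in Ebf2-positive cells, and their differences stayed above 0 with poly-A centring. Prrx2 had log2 signals of 7.63, 7.24 and 7.92 in Ebf2-positive cells, against 3.58, 3.32 and 3.38 in Ebf2-negative cells. The lowest Ebf2-positive array was far above the highest Ebf2-negative array, and the Ebf2-negative values lay near the median of all probe sets and arrays, 3.74. The difference was 4.17 (SE 0.23), or 18-fold (limma adjusted p = 0.000322). Prrx1, read by its brightest probe set, stood at 10.12, 9.76 and 10.56 in Ebf2-positive cells, against 6.47, 7.61 and 5.90 in Ebf2-negative cells. The Ebf2-negative arrays spread more widely and still held a clear signal, since their mean of 6.66 was brighter than 80.0% of probe sets. The difference was 3.49 (SE 0.47), or 11.2-fold (limma adjusted p = 0.00338). Over the mean of its probe sets, dim ones included, the Prrx1 difference was 2.09 and kept its call. With poly-A centring Prrx2 kept its call at 1.69 (limma adjusted p = 0.0284), while Prrx1 did not pass at 1.01 (limma adjusted p = 0.193).

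Prrx1 is read by 6 probe sets, which did not all behave alike. Tested among all 45037 probe sets, of which 15.1% were called, 6.39% higher and 8.76% lower, 4 of the 6 were called higher. The probe set 1439774_at differed by 4.21 and 1432129_a_at by 2.90, with the groups apart in both. The dimmer 1425526_a_at differed by 1.38 (limma adjusted p = 0.0324) and lost its call without Ebf2-positive replicate 3 or any of the 3 Ebf2-negative arrays (limma adjusted p up to 0.118). Another pair of probe sets, 1458004_at and 1425527_at, was dim in both groups, at means of 2.57 and 2.59 in Ebf2-positive cells and 2.40 and 2.20 in Ebf2-negative cells, and was not called. On all 4 called probe sets, Ebf2-negative replicate 2 had the highest Prrx1 signal of its group.

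Both Twist genes were higher in Ebf2-positive cells, Twist2 turning negative with poly-A centring. Twist1, which patterns cranial mesenchyme and sutures, had log2 signals of 5.86, 5.76 and 6.06 in Ebf2-positive cells, against 2.28, 4.22 and 2.42 in Ebf2-negative cells. The Ebf2-positive arrays were close together, and Ebf2-negative replicate 2 lay well above the other two Ebf2-negative arrays, which lay below 2.56, the value that 25% of all signals fall under, so no fold is given. The difference was 2.92 (SE 0.52, limma adjusted p = 0.00929), and it ran from 2.57 to 3.54 when single arrays were left out. Twist2, first described in dermis as Dermo1, stood at 6.60, 6.88 and 7.16 in Ebf2-positive cells, against 4.53, 5.07 and 4.70 in Ebf2-negative cells. The groups were apart, with spreads of similar size. The difference was 2.11 (SE 0.24), or 4.33-fold (limma adjusted p = 0.00204), and -0.37 with poly-A centring. The 250 bases before each RefSeq start are shown because both genes differed in the same direction under the deposited scaling and bind E-boxes themselves; neither window holds an E-box, CANNTG, which would be in capitals. They lie at chr12:33957421-33957670, plus strand, and at chr1:91801211-91801460, plus strand, in GRCm38.p6.
Twist1: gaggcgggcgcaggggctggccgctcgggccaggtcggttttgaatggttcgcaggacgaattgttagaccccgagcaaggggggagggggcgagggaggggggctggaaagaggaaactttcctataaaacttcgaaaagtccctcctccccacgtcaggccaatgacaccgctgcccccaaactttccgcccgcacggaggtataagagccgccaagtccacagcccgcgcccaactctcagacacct
Twist2: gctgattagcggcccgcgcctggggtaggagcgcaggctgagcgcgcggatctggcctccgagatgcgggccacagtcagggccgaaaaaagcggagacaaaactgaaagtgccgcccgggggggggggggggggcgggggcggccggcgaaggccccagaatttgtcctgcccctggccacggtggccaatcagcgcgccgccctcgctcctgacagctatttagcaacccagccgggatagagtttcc

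The Snail genes gave different readings. Snai1, an inducer of epithelial-mesenchymal transition, had log2 signals of 4.04, 3.88 and 3.92 in Ebf2-positive cells, against 2.70, 3.16 and 2.89 in Ebf2-negative cells. The groups were apart but both were dim, the Ebf2-positive arrays near and the Ebf2-negative arrays below the median of all probe sets. The difference was 1.03 (SE 0.20), or 2.04-fold (limma adjusted p = 0.0124). It was lost without Ebf2-negative replicate 3 (1.01, limma adjusted p = 0.0560) and turned to -1.45 with poly-A centring. Its window, chr2:167537945-167538194, plus strand, holds the sole CACCTG match among the 8 factors that had a window, and is shown for that reason. The match is in capitals, with its first base at -126 from the start.
Snai1: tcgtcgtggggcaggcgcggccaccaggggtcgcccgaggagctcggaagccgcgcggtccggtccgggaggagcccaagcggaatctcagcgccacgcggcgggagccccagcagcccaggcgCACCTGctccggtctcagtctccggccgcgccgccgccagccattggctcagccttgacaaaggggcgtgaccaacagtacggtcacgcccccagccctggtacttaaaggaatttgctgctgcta

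Snai2 (Slug), a factor of neural crest that also protects blood progenitors, was bright in both groups. Its brighter probe set, 1447643_x_at, read 9.98, 10.52 and 8.81 in Ebf2-positive cells, against 9.56, 10.74 and 8.96 in Ebf2-negative cells. The groups overlapped fully. The difference was 0.02 (95% confidence interval -1.41 to 1.44, limma adjusted p = 0.988), so a change of up to about that size in either direction was not detectable with 3 arrays a group. That probe set is marked by its maker as able to cross-hybridise. The other, 1418673_at, read 6.45, 7.22 and 4.37 in Ebf2-positive cells, against 6.31, 7.41 and 5.56 in Ebf2-negative cells, and was not called either (-0.41, 95% confidence interval -2.40 to 1.57). With poly-A centring the brighter probe set differed by -2.46 and was called lower (limma adjusted p = 0.00218).

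Zeb1 was higher in Ebf2-positive cells under the deposited scaling and at -0.85, not called, with poly-A centring. Its brightest probe set read 9.53, 9.57 and 9.76 in Ebf2-positive cells, against 7.73, 8.05 and 8.18 in Ebf2-negative cells. The arrays of each group lay within 0.5 of each other, and both groups were bright. The difference was 1.63 (SE 0.20), or 3.10-fold (limma adjusted p = 0.00278), and ran from 1.5 to 1.73 when single arrays were left out. Of the other 3 Zeb1 probe sets, 1446127_at was called higher (2.91, limma adjusted p = 0.0192 among probe sets), but not without Ebf2-negative replicate 2 (0.0577) or with the replicate block (0.0539). The probe sets 1443005_at (-0.18) and 1420243_at (0.46) were not called.

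Zeb2, the SMAD-interacting relative of Zeb1, was not called on any of its 5 probe sets. The brightest read 8.20, 7.58 and 6.31 in Ebf2-positive cells, against 7.06, 6.59 and 6.20 in Ebf2-negative cells. Ebf2-positive replicates 1 and 2 were above every Ebf2-negative array, while replicate 3 lay among them. The difference was 0.75 (95% confidence interval -0.47 to 1.96, limma adjusted p = 0.346), and -1.73 with poly-A centring (limma adjusted p = 0.0248). Over the other 4 probe sets the differences were 1.70, 1.38, 0.39 and -0.30, so the probe sets also differ in sign. Zeb2 is strongly used by macrophages, whose 6 markers had mean signals near the median of all probe sets in both groups. The log2 of their summed signal ran from 6.03 to 7.85 on the Ebf2-positive arrays and from 6.10 to 6.85 on the Ebf2-negative arrays, and 0 of the 6 were called.

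Tbx18 was higher in Ebf2-positive cells, with the widest spread in that group among the called factors. Its brighter probe set read 6.65, 6.53 and 8.44 in Ebf2-positive cells, against 4.19, 4.64 and 4.15 in Ebf2-negative cells. Ebf2-positive replicate 3 stood well above the other two, and all 3 were above the Ebf2-negative arrays. The difference was 2.88 (SE 0.53), or 7.36-fold (limma adjusted p = 0.0101). Without Ebf2-positive replicate 3 it was 2.26 and kept its call, over the mean of both probe sets it was 1.80 and called, and with poly-A centring it was 0.40 and was not (limma adjusted p = 0.610). The dimmer probe set, 1449871_at, differed by 0.71 and was not called (limma adjusted p = 0.302). The window of Tbx18, chr9:87731261-87731510, minus strand, is shown because it holds the other E-box found, CAGATG, in capitals, with its first base at -168.
Tbx18: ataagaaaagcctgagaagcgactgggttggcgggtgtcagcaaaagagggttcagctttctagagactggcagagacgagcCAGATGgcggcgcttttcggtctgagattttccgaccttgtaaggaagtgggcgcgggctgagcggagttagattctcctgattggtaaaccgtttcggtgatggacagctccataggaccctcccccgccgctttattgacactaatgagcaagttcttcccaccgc

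Tcf21 was dim in both groups and was not called. Its brighter probe set read 2.74, 2.75 and 2.53 in Ebf2-positive cells, against 2.62, 2.59 and 2.53 in Ebf2-negative cells. These lay at the 26.6th and 26.9th percentile of probe sets, and the other probe set, at means of 1.86 and 1.78, at the 4.23rd and 4.91st percentile. The difference was 0.10 (95% confidence interval -0.32 to 0.52, limma adjusted p = 0.732). At such low signal a difference of transcript could go unseen. With poly-A centring Tcf21 is called lower at -2.38, close to the median of all genes with that scaling, -2.41. At such low signal this call is not read as a change of Tcf21 transcript.

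**Figure D2:**
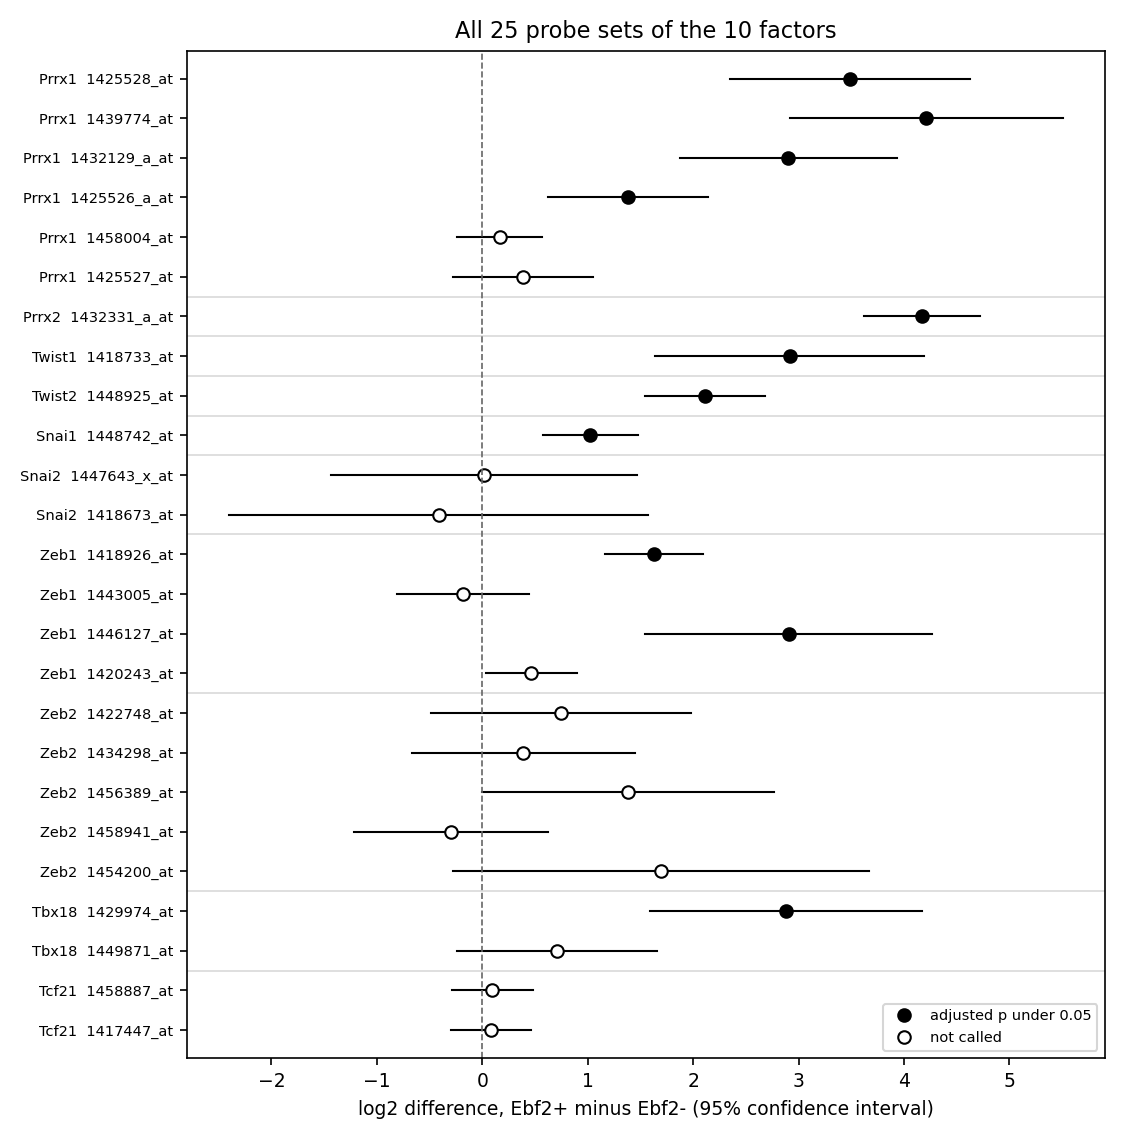
Log2 difference, Ebf2-positive minus Ebf2-negative (horizontal axis), with its 95% confidence interval, for each of the 25 probe sets, ordered by gene and then by brightness. Filled points are the 11 probe sets called, all of them higher (Prrx1, Prrx2, Twist1, Twist2, Snai1, Zeb1 and Tbx18). Of all probe sets 15.1% were called, 6.39% higher and 8.76% lower. With poly-A centring 2 of the 25 probe sets are called higher.

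Over the 25 probe sets, 11 were called higher, 0 lower and 14 not called. Of all probe sets 15.1% were called, 6.39% higher and 8.76% lower. In 12 of the 25 the groups did not overlap, each with Ebf2-positive cells higher. Among all probe sets 35.9% had no overlap, in either direction. The differences of the 25 ran from -0.41 to 4.21 with a median of 1.03. A filter asking for a log2 signal of 5 on at least 3 arrays kept 15 probe sets and 8 of the 10 genes. Snai1 and Tcf21 were left out, and a gene that passes through a single bright group was bound to differ, so nothing is read from the genes that passed. Within the 4 families with 2 members, the differences of the 2 paralogues were compared directly. The log2 gap between paralogues changed by -0.68 for Prrx1 over Prrx2, 0.80 for Twist1 over Twist2, 1.01 for Snai1 over Snai2 and 0.88 for Zeb1 over Zeb2. None of the 4 passed (two-sided exact permutation p = 0.3, 0.3, 0.2 and 0.4, adjusted p = 0.4 each). None could have passed at 0.05, since 0.1 is the smallest p that 3 against 3 arrays allow. These gaps moved by over 1.5 times under some settings. With all probe sets of a gene averaged, that of Prrx1 over Prrx2 was -2.08 and that of Zeb1 over Zeb2 0.42. Without Ebf2-negative replicate 2 the Prrx gap was -0.16 and the Twist gap 1.27, without Ebf2-negative replicate 3 the Prrx gap was -1.04, and without single arrays the Snail gap ran from 0.54 to 1.41 and the Zeb gap from 0.29 to 1.35, both lowest without Ebf2-positive replicate 3. Snai1 and Zeb1 were thus called and their paralogues not, but this test could not show a difference between paralogues, and none is concluded.

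**Figure D3:**
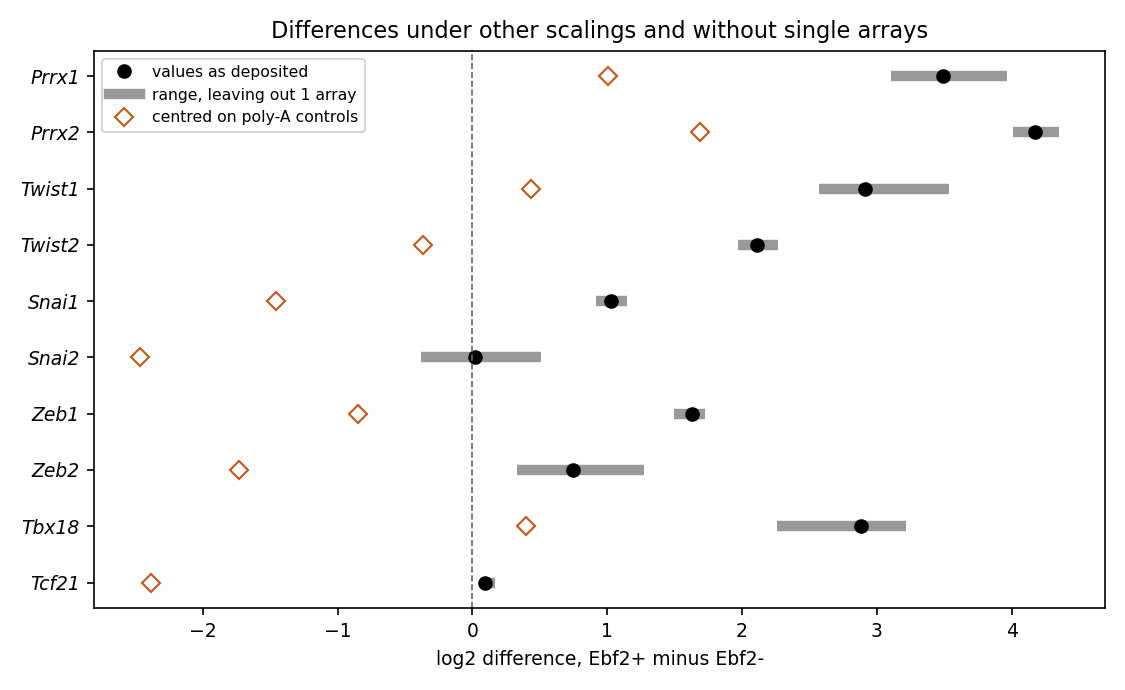
Log2 difference, Ebf2-positive minus Ebf2-negative (horizontal axis), of the 10 factors with the values as deposited (black), as a range over the 6 fits that leave out 1 array (grey), and after centring on the poly-A controls (orange diamonds). Leaving out arrays moved no called factor to 0, while poly-A centring put Twist2, Snai1 and Zeb1 below 0 with Snai2, Zeb2 and Tcf21.

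Promoter windows of 300 bases were found in the RefSeq table (GRCm38.p6) for 8 of the 10 factors, 11 windows in all; Snai2 and Zeb1 were not matched. Both strands were searched for 5 motifs. The E-box CANNTG, which includes the Snail and Zeb core CACCTG, occurred in 2 of the 8 genes (Snai1 and Tbx18), and in 72.3% of all 32851 windows. CACCTG occurred in 1 (Snai1) against 20.2% of windows, and the homeobox core TAATTA in 1 (Prrx1, first base at -173) against 5.29%. The palindromic EBF motif and the T-box half-site TCACACCT occurred in 0 of the 8, and in 0.904% and 1.28% of all windows. The windows of Snai1, Prrx2, Twist1 and Twist2 were rich in G and C, at 70.0, 70.3, 66.0 and 64.7%, while that of Prrx1 had 47.7% and that of Tbx18 51.7%, around a median of 52.7% over all windows. These matches describe letters in a short window, and say nothing of binding.

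The profiles most like each called factor over the 6 arrays were found by the root mean square difference after centring each gene on its mean, as a description. Genes named only by clone or model identifiers were left out. Twist1 was closest to Cav1, a caveolae protein (0.069), and Col1a2, a type I collagen chain (0.147). Prrx2 was closest to Eln, elastin (0.119), and Npy1r, a neuropeptide Y receptor (0.119). Prrx1 was closest to Fgfr1, a fibroblast growth factor receptor (0.182), and Pls3, an actin bundler (0.183). Zeb1 was closest to Ptms (0.0917) and Lrrc8a (0.0941), Twist2 to Trim35 (0.135) and Slc49a4 (0.149), and Snai1 to B9d1 (0.0708) and Bet1l (0.112). Tbx18 was closest to Pyroxd2 (0.232) and Mtus1 (0.247), the largest distances among these matches. All these profiles share the same 6 arrays in 2 groups, so any gene with a group difference of like size lies close.

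Dimer partners of the bHLH factors went in both directions. The list counts from here on are to be set beside all genes, of which 10.8% were called higher and 13.6% lower. With poly-A centring 15823 of all 18193 genes were called. Of 7 partner and inhibitor genes, 3 were called higher and 1 lower, with a median difference of 1.28, and 0 higher and 2 lower with poly-A centring. The median was 0.80 when Ebf2-positive replicate 3 was left out, and 0.77 when Ebf2-negative replicate 3 was. Id2, an inhibitor of E proteins, averaged 8.55 ± 0.48 on Ebf2-positive arrays and 5.15 ± 0.73 on Ebf2-negative arrays (3.40, limma adjusted p = 0.00281). On the brightest Id2 probe set without an _x_, _s_ or _a_ suffix the difference was 0.04 (limma adjusted p = 0.903). Tcf4, an E protein, differed by 2.43 and was at 9.22, 10.09 and 10.02 in Ebf2-positive cells, against 7.02, 8.03 and 6.99 in Ebf2-negative cells. Id3 differed by 2.37 but lost its call without Ebf2-positive replicates 2 or 3 or Ebf2-negative replicates 1 or 3 (limma adjusted p up to 0.0802). Tcf3, the E protein E2A, was lower, averaging 7.12 ± 0.15 on Ebf2-positive arrays and 8.53 ± 0.41 on Ebf2-negative arrays (-1.41, limma adjusted p = 0.00991). The E-protein genes thus differed in direction, with Tcf4 called higher, Tcf3 lower, and Tcf12 at -0.29 not called.

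Of 14 corepressor and SMAD genes that Snail and Zeb proteins work with, 2 were called higher and 4 lower, with a median of -0.69, and 1 higher and 11 lower with poly-A centring. With that scaling 15823 of all 18193 genes were called. Ajuba, a LIM protein that bridges Snail to its cofactors, was at 9.97, 9.36 and 8.78 in Ebf2-positive cells, against 5.51, 5.66 and 4.38 in Ebf2-negative cells (4.19, limma adjusted p = 0.00167). The lower genes encode general chromatin repressors: the Polycomb subunits Ezh2 (-4.20) and Suz12 (-2.44), the CoREST protein Rcor1 (-2.32), and Sin3a (-1.72). Sin3a was not called on its brightest probe set without an _x_, _s_ or _a_ suffix (-0.41, limma adjusted p = 0.415). Ezh2 is also abundant in dividing progenitors, and the erythroid markers given above were lower in the same samples, whose part in it was not tested. The Zeb corepressor genes Ctbp1 (-0.62, limma adjusted p = 0.0564) and Ctbp2 (1.07, limma adjusted p = 0.0979) did not pass. Some settings gave calls in opposite directions. Ctbp1 was called lower with array weights, the mean of probe sets or median centring. Ctbp2 was called higher with the replicate block or without Ebf2-positive replicate 3. Smad4 was called higher at 1.15, and lost the call without 3 of the 6 arrays (Ebf2-positive replicate 1 and Ebf2-negative replicates 2 and 3). Of 9 measured genes that control Snail protein stability, the kinase genes Csnk1e (2.22) and Lats2 (2.11) were called higher and 0 were called lower. With poly-A centring 0 were called higher and 7 lower. Csnk1e lost its call when any 1 of 4 arrays was left out. Fbxw7 had the largest difference of the list (-2.34) and was not called (limma adjusted p = 0.0534). It was called lower with the replicate block (limma adjusted p = 0.0297) or the filter on dim probe sets (limma adjusted p = 0.0206), among other settings. Btrc (-1.36) was called lower with the block, and Fbxo11 (0.83) higher without Ebf2-positive replicate 2. Lats2 was not called on its brightest probe set without an _x_, _s_ or _a_ suffix (-0.22, limma adjusted p = 0.755), and without Ebf2-positive replicate 2 the list's median of 0.46 became -0.02.

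Epithelial genes, the classic targets of Snail and Zeb repression, were mostly dim in both groups. Of 25, 4 were called higher, 1 lower and 20 not, with a median of -0.07, and 0 higher and 20 lower with poly-A centring. Over all 18193 genes 10.8% were called higher and 13.6% lower, and 15823 were called with poly-A centring. The list counts are thus not read as a result about epithelial genes. Cdh1 was at 2.55, 3.37 and 2.03 in Ebf2-positive cells, against 6.25, 4.09 and 5.77 in Ebf2-negative cells. The difference of -2.72 (limma adjusted p = 0.0224) lost its call without Ebf2-positive replicates 1 or 3 or Ebf2-negative replicates 1 or 3 (limma adjusted p up to 0.0848). Cdh1 is also expressed by erythroid progenitors, whose markers were lower in the same samples, and their part in it was not tested. Krt8, Krt18, Esrp1 and Cldn7 were not called. The genes called higher were Jup, the junction protein plakoglobin (1.73), Epcam, an adhesion molecule (1.51), Krt19, a keratin (1.47), and Cldn3, a claudin (1.42), the last 2 losing their calls without single arrays. Without Ebf2-negative replicates 1 or 2, 2 epithelial genes were called higher. These are opposite in sign to Cdh1, and all 5 have negative differences with poly-A centring.

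Genes of the mesenchymal state included extracellular matrix and cytoskeletal genes. Of 19 measured, 14 were called higher and 0 lower, with a median of 3.18, and 7 higher and 4 lower with poly-A centring. Fn1, fibronectin, was at 12.94, 12.88 and 12.96 in Ebf2-positive cells, against 7.25, 7.04 and 6.88 in Ebf2-negative cells (5.87, limma adjusted p = 0.000116). Col3a1, a fibrillar collagen chain (5.39), Mmp2, a gelatinase (5.27), and S100a4, the protein also called fibroblast-specific protein (4.90), followed. Cdh2, N-cadherin (0.76), and Cdh11, the cadherin of osteoblasts (-0.40), did not pass (limma adjusted p = 0.471 and 0.676), so the cadherin genes of the classic switch gave 1 call, that of Cdh1, which rested on single arrays.

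**Figure D4:**
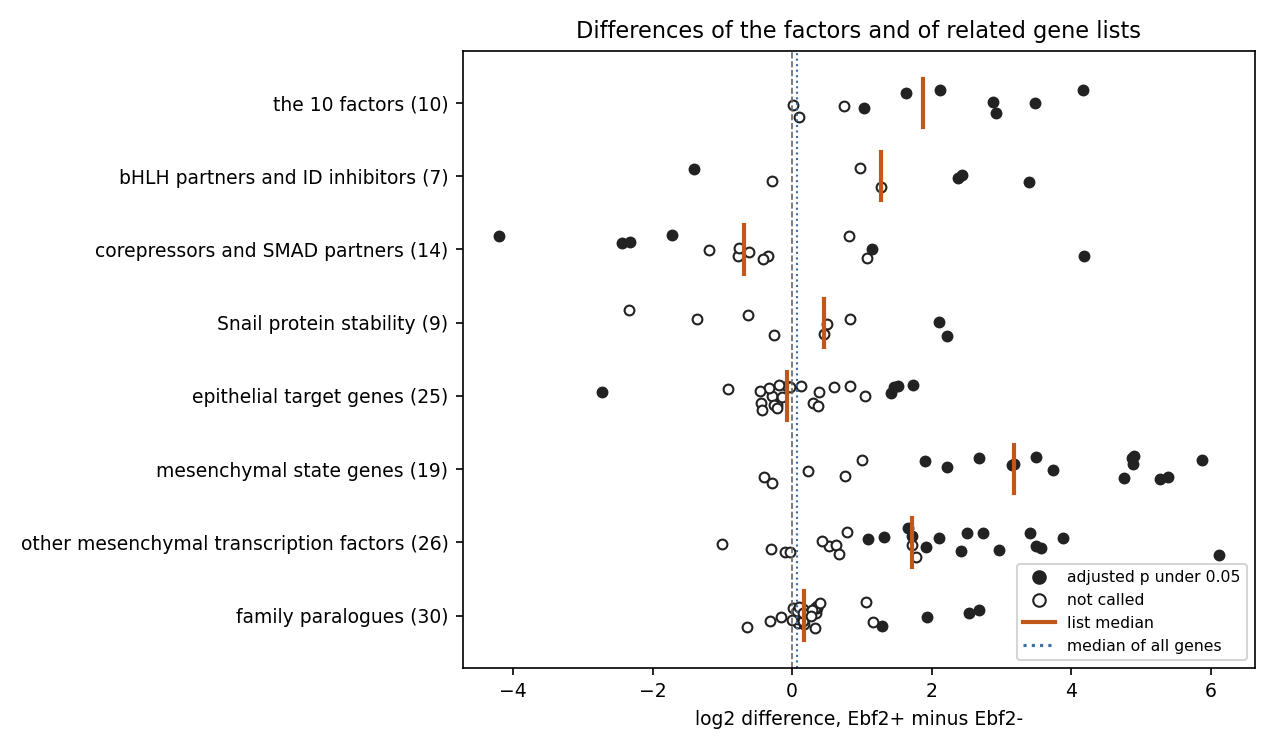
Log2 difference, Ebf2-positive minus Ebf2-negative (horizontal axis), of each gene in the 10 factors and 7 related lists, with the number measured in parentheses. Filled points were called, orange bars are list medians (1.87 for the factors, 3.18 for the mesenchymal state genes, -0.07 for the epithelial genes), and the dotted line is the median of all genes, 0.07; with poly-A centring all points lie 2.48 further left.

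Of 26 other transcription factors of mesenchyme that were measured, 15 were called higher and 0 lower, with a median of 1.72, and 1 higher and 9 lower with poly-A centring; without single arrays between 11 (without Ebf2-negative replicate 3) and 15 were called higher. Meox2, a homeobox gene of somite and vessel-wall cells, had the largest difference (6.12), at 9.80, 9.55 and 9.93 in Ebf2-positive cells, against 3.15, 5.64 and 2.15 in Ebf2-negative cells. Nr2f1 (3.88) and Nr2f2 (3.49), orphan nuclear receptors of mesenchyme, and Osr1, a zinc-finger factor of fibroblast progenitors (3.56), followed. Among 30 measured paralogues of the 6 families, 4 were called higher and 0 lower, with a median of 0.17, and 0 higher and 24 lower with poly-A centring. Over all 18193 genes 10.8% were called higher, and 15823 were called with poly-A centring, so these counts are not read as a result about the paralogues. Those called higher were the T-box genes Tbx2 (2.68), Tbx15 (1.94) and Tbx3 (1.29), and Msc, musculin, the close relative of Tcf21 (2.53). Msc was at 7.16, 9.33 and 8.61 in Ebf2-positive cells, against 5.60, 6.83 and 5.07 in Ebf2-negative cells, and lost its call when any 1 of 4 arrays was left out (limma adjusted p up to 0.123). Snai3, the third Snail gene, was dim and not called (0.14, limma adjusted p = 0.683).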

How the data were processed

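RNA from 3 Ebf2-positive and 3 Ebf2-negative samples was amplified and hybridized to Affymetrix MOE430_2 arrays. The authors deposited a linear intensity for each probe set on each array, computed by RMA per the submitters' processing notes and the series design text, with no version or settings stated. RMA as usually run includes quantile normalization, which hides differences in total RNA between samples; amplification can add spread to dim genes. Log2 was taken before any test. Of 45101 probe sets, 64 controls were left out. Platform annotation names 1 gene for 34945 probe sets, and each of 18193 genes was read by its probe set with the highest mean. The group comparison used limma 3.58.1 under R 4.3.3 (eBayes after lmFit, two-sided, Benjamini-Hochberg over all genes or all probe sets, threshold 0.05), after testing the fit on simulated data. Precision is limited by having 3 arrays in a group. Paralogue pairs were compared by exact permutation. Protein identity between paralogues was not computed.

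Members, lists and tests were chosen with earlier results of these data known. Named were all members, Ebf2, Ptprc, Pecam1, and up to 4 called genes with the largest differences per list (marker lists are given as counts). Called paralogues and the 2 likeliest profiles per called member were also named. Sin3a, Smad4, Ctbp1, Ctbp2, Fbxw7, Btrc, Fbxo11, Tcf12, Cldn3, Cdh2, Cdh11, Snai3 and the uncalled epithelial genes were added after their values were seen. Other marker lists had no called member (macrophage, T and NK cell, B lineage), 1 higher of 6 (endothelial), 1 higher and 1 lower of 6 (epithelial), 4 lower of 6 (leukocyte) or 4 lower of 5 (megakaryocyte). Alternatives were other scalings, a filter on dim probe sets, the mean of probe sets, and no _x_, _s_ or _a_ probe sets. Further ones were other variance models, array weights, a minimum difference, a replicate block, and leaving out arrays. Plots used matplotlib 3.10.9 (Python 3.11.15).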

Additional observations from a re-analysis of the deposited data

How the results depend on the processing

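The direction of the 7 called factors held, wherever they had a value, under 17 of the 18 alternatives, poly-A centring being the exception. Snai1 had no value with the filter on dim probe sets. Prrx2 kept its call in all 17 that gave it a value. With poly-A centring 4 factors were called, 1 of them higher, and 15823 of all genes were called. Differences then reversed for Twist2 (-0.37), Snai1 (-1.45), Zeb1 (-0.85), Snai2 (-2.46), Zeb2 (-1.73) and Tcf21 (-2.38). The same happened for the probe sets 1425526_a_at (-1.10), 1458004_at (-2.31) and 1425527_at (-2.09) of Prrx1, 1420243_at of Zeb1 (-2.02), 1434298_at of Zeb2 (-2.09), 1449871_at of Tbx18 (-1.77) and 1417447_at of Tcf21 (-2.40). On each array this scaling shifts all genes alike, by an amount that differs among arrays. The log2 signal of the controls was 12.16, 12.23 and 12.58 on Ebf2-positive arrays, against 10.31, 8.70 and 10.52 on Ebf2-negative arrays. Ebf2-negative replicate 2 is thus moved further than the rest of its group. Whether the spike-in amounts per cell matched between groups was not tested. With a minimum log2 difference of 1, 3 factors (all higher), 5 of their probe sets and 1433 of all genes were called, as that test asks for more. Without both arrays numbered 2, 7 factors and 7 of the 25 probe sets were called; the cause was not tested. Leaving out single arrays gave 6 to 7 factors, 7 to 11 probe sets and 2690 to 4348 genes called, the fewest genes and the fewest factors without Ebf2-negative replicate 3, and 7 probe sets also without Ebf2-negative replicate 1. Without _x_, _s_ and _a_ probe sets Prrx2 had no value. The replicate number as a block gave 7 factors, 9 probe sets and 4219 genes called. The adjusted p of each of the 7 factors was larger with the block, up to a limma adjusted p of 0.0413 for Snai1. The main fit did not take the numbers as pairs. Deviations of same-numbered arrays correlated at only 0.0547, 0.113 and 0.0344, yet each of the 6 arrays correlated best with its own number. Whether same-numbered arrays share a source was not tested.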

Other observations

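Snai2 varied among arrays in a like manner in both groups, a pattern noticed in the data and not tested. On both of its probe sets the arrays numbered 2 were the brightest and those numbered 3 the dimmest, in Ebf2-positive (10.52 and 8.81 on 1447643_x_at) and in Ebf2-negative cells (10.74 and 8.96). Differences within a number were 0.42, -0.22 and -0.15 on that probe set and 0.13, -0.19 and -1.18 on 1418673_at. The genes closest to it over the 6 arrays were Cnot6l (0.202), C1qa (0.262), Abhd18 (0.309) and Gjb2 (0.316). Only genes with an SD of at least 0.5 were compared, without clone or model identifiers. C1qa, a complement gene of macrophages, was dim at 2.89 to 4.09 in Ebf2-positive and 3.28 to 4.35 in Ebf2-negative cells.

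Ebf2-negative replicate 2, which had the highest Prrx1 and Twist1 signals of its group on their representative probe sets (7.61 and 4.22), also had the highest mean of the mesenchymal stroma and mural-cell markers there, at 8.76 and 6.18, against 8.14 and 5.28 on replicate 1 and 7.77 and 5.32 on replicate 3. The endothelial (5.35, against 4.16 and 3.93 on replicates 1 and 3), megakaryocyte, macrophage and erythroid marker means were also highest on replicate 2. Those of the leukocyte, basophil and mast cell, B lineage and epithelial lists were lowest there. The part of any of these cells in the spread was not tested.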
